A study of Mus musculus with 5 samples.

Results

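Cdkn1a, Phlda3, Ccng1, Bax, Mdm2, Trp53inp1, Eda2r, Zmat3 and Aen are 9 target genes of the transcription factor p53, out of 32285 genes counted. They were chosen by name after earlier results on the same libraries had shown a lower level in alpha cells of mice on a hydrolyzed casein diet. The alpha cell levels by diet, and the levels of alpha cells against other cell types, chose these genes and are given as a description with no test. Tests are given for the diet in the other cell types. Cells from hand-picked pancreatic islets of 5 NOD.SCID mice (strain NOD.Cg-Prkdcscid/J) were sequenced as 1 droplet library per mouse, in which each unique molecular identifier (UMI) marks 1 captured transcript end. Of the 5 mice, 3 were on chow (aged 8, 10 and 10 weeks, called chow mice 1 to 3) and 2 were on 20% HC, where HC stands for hydrolyzed casein (aged 7 and 9 weeks, HC mice 1 and 2). The library of HC mouse 2 carries a title that says chow, while its diet label and the series design say HC, so it was kept as HC. Both groups carry the scid mutation of Prkdc, the gene of the catalytic subunit of DNA-dependent protein kinase, a repair enzyme for DNA double-strand breaks, and such mice lack mature T and B cells. Replicates are single mice.

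Damaged DNA and other stresses slow the breakdown of p53, which then binds a pair of short half-sites near its targets and raises their transcription. Cdkn1a encodes p21, an inhibitor of cyclin-dependent kinases that halts the cell cycle. Mdm2 encodes the ubiquitin ligase that returns p53 to a low level, so the pathway contains its own brake. The other members act in growth signalling, cell death, autophagy and RNA handling.

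The promoter windows searched run from 250 bases before to 50 after a RefSeq start site (build GRCm38.p6) and were found for 7 of the 9 genes. They are shown because a p53 half-site (matched by its degenerate consensus on both strands) is the sequence the members could share, and the capitals mark each half-site match. The Cdkn1a stretch at chr17:29090891-29090960 (plus strand) holds 2 half-sites with 12 bases between them. They begin 73 and 51 bases before the start site of that window. A second Cdkn1a window, of a start site further along the gene (chr17:29093519-29093818), holds no half-site match. The Ccng1 stretch lies at chr11:40755447-40755486, the Bax stretch at chr7:45467075-45467114 and the Mdm2 stretch at chr10:117710920-117710959, all on the minus strand.
Cdkn1a: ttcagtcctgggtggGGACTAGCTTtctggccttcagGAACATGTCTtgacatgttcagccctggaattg
Ccng1: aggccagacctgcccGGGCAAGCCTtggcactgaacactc
Bax: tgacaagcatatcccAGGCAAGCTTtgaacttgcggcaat
Mdm2: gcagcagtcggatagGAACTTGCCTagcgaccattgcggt
The half-site begins 185 bases before the start in Ccng1, 201 in Bax and 186 in Mdm2. A single half-site is common: 2745 of 32851 windows of this length hold one (8.36%). A pair of half-sites at most 13 bases apart, as in Cdkn1a, is in 24 windows (0.0731%). The second half-site of Cdkn1a contains ACATGT, and another ACATGT, which is no half-site match, follows it after 4 bases; such a pair of ACATGT is in 4 windows (0.0122%) and ACATGT alone in 5.28%. No half-site match is in the Phlda3 or Eda2r windows, and the match of Aen lies within a transcript and is not printed. These matches are descriptions of letters, and no binding was measured here.

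The genes lie apart in the genome (GENCODE annotation of GRCm38). Cdkn1a spans 29090976 to 29100727 on chromosome 17, Phlda3 135766119 to 135769136 on chromosome 1, Ccng1 40748552 to 40755311 on chromosome 11 and Mdm2 117688875 to 117710758 on chromosome 10. Bax spans 45461697 to 45466898 and Aen 78895854 to 78911209, both on chromosome 7. Trp53inp1 spans 11156431 to 11174379 on chromosome 4, Zmat3 32334792 to 32366014 on chromosome 3 and Eda2r 97333840 to 97377216 on chromosome X. Bax overlaps Gm45808 on the same strand, which was not a counted gene, so its reads could have been given to Bax. Cdkn1a overlaps AC167363.2, also not counted, on the other strand, and whether the counting used strand is not given in the sources used here.

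The libraries held 28722244 to 39624978 UMIs in 4452 to 6087 barcodes, and 22758 cells were kept. Pairs of libraries shared 3 to 10 cell barcodes. Per mouse, 763 to 1295 cells were alpha-like (glucagon), 1395 to 2143 beta-like (insulin), 420 to 516 delta-like (somatostatin), 80 to 273 endothelial-like, 49 to 117 macrophage-like, 31 to 132 stromal-like and 38 to 105 ductal-like. Levels are in UPM, the UMIs of a gene per 1000000 UMIs of a type in a mouse. Hormone transcripts fill much of an endocrine cell's total, so each level was also computed without the hormone genes.

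Cdkn1a had a lower level in the alpha cells of both HC mice than in those of all 3 chow mice. It stood at 89.0, 78.8 and 70.3 UPM in chow mice 1 to 3, from 350, 321 and 225 UMIs. In HC mice 1 and 2 it stood at 41.4 and 38.3, from 220 and 171 UMIs. The chow mean was 79.4 ± 9.38 (SD, n = 3) and the HC mean 39.9 ± 2.21 (SD, n = 2), or 50.2% of chow. The fitted log2 difference of HC over chow was -1.09 (standard error 0.132). The groups did not overlap, and the gap between the lowest chow mouse and the highest HC mouse was wider than the spread within either group.

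Phlda3, which encodes a pleckstrin-homology protein that restrains Akt signalling, gave the same order. Its alpha level was 32.0, 27.8 and 28.4 UPM in the chow mice and 16.01 and 15.24 in the HC mice. The means were 29.4 ± 2.31 (SD, n = 3) and 15.6 ± 0.546 (SD, n = 2), 53.1% of chow, and the fitted log2 difference was -1.005 (standard error 0.162). Cdkn1a and Phlda3 were the 2 of 9 members with both HC mice under every chow mouse, an order seen in 4.96% of the 10798 genes fitted in alpha cells.

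**Figure D1:**
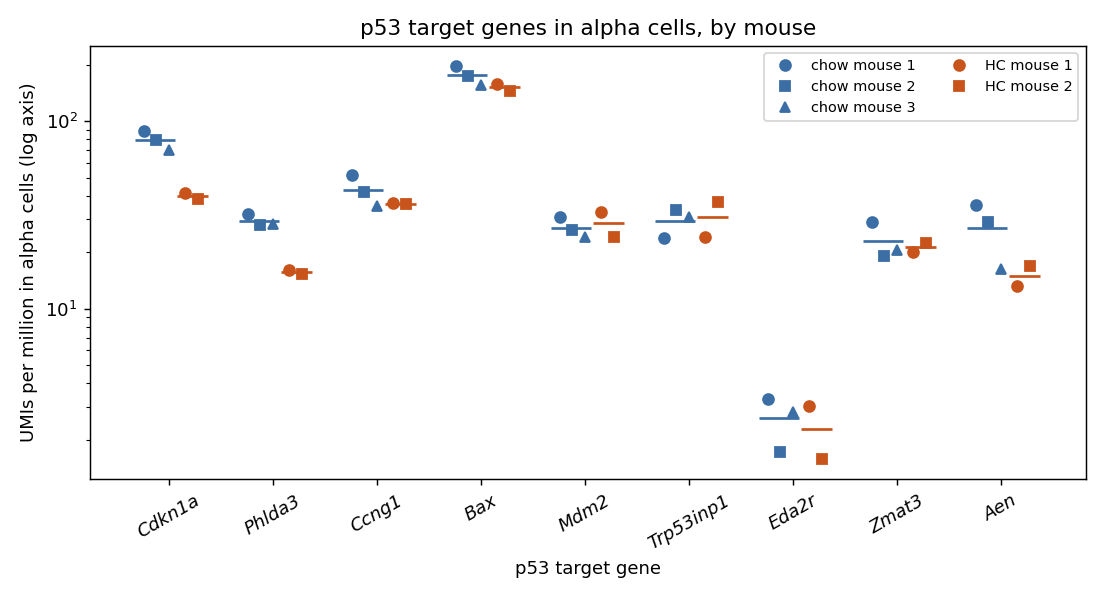
Level of each of the 9 genes in alpha cells, in UPM on a log axis, with 1 point per mouse and lines at the group means. Cdkn1a (38.3 and 41.4 against 70.3 to 89.0) and Phlda3 (15.24 and 16.01 against 27.8 to 32.0) are the genes whose HC and chow points do not overlap.

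On all UMIs the members tied to cell death overlapped between the diets, while without hormone genes Bax and Aen did not. Bax, whose protein opens the outer mitochondrial membrane, stood at 198, 173 and 157 UPM in alpha cells of chow mice and at 158 and 145 in HC mice (log2 difference -0.31, standard error 0.119). Its HC mouse 1 lay just above chow mouse 3, so the groups overlapped. Aen, an exonuclease that takes part in p53-dependent apoptosis, stood at 35.9, 29.0 and 16.2 in the chow mice, against 13.2 and 16.8 in the HC mice. Chow mouse 3 lay among the HC mice. The Aen means of 27.0 ± 9.95 (SD, n = 3) and 14.99 ± 2.56 (SD, n = 2) gave a log2 difference of -0.97 (standard error 0.273). Eda2r, a receptor of the tumour necrosis factor receptor family, was counted at only 1.57 to 3.31 UPM, from 7 to 16 UMIs per mouse, and its order could not be read.

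Mdm2 and Ccng1, both tied to feedback on p53, overlapped between the diets on all UMIs, while without hormone genes Ccng1 did not. Mdm2 stood at 30.8, 26.3 and 24.1 UPM in alpha cells of chow mice and at 32.8 and 24.2 in HC mice, a log2 difference of -0.02 (standard error 0.163). Ccng1, which encodes cyclin G1, a partner of a phosphatase that acts on Mdm2, stood at 51.9, 41.8 and 35.3 in the chow mice, against 36.4 and 36.3 in the HC mice (log2 difference -0.34, standard error 0.152). Both HC mice lay beside chow mouse 3 for Ccng1, and on both sides of chow mice 1 and 2 for Mdm2.

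Trp53inp1, a stress protein linked to autophagy, stood at 23.9, 33.7 and 30.6 UPM in the chow mice, against 24.1 and 37.2 in the HC mice (log2 difference -0.04, standard error 0.200). Zmat3, an RNA-binding zinc-finger protein, stood at 29.0, 19.2 and 20.6 against 20.0 and 22.4 (log2 difference -0.21, standard error 0.186). Neither separated the diets.

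Summed over the 9 genes, the alpha level was 493, 431 and 385 UPM in the chow mice, against 345 and 337 in the HC mice. Without Cdkn1a the sums were 404, 352 and 314 against 303 and 299, so the sum kept that order with a smaller gap. It still holds Phlda3, whose groups did not overlap, and a sum without Phlda3 as well was not computed. The order of this sum is therefore no result about the other members. All 9 fitted differences were under 0, with a median of -0.31, where 50.2% of all genes fitted were under 0 and their median was -0.00131. These values chose the genes, so the count is no support. In plain UPM the HC means of Mdm2 and Trp53inp1 were 105% and 104% of chow. Leaving out a mouse moved the fitted difference across 0 for Mdm2 (-0.233 to 0.155), Trp53inp1 (-0.404 to 0.27) and Eda2r (-0.781 to 0.0983). Without hormone genes in the total, Ccng1, Bax and Aen also had both HC mice under every chow mouse, making 5 of 9 against 7.41% of all genes. Leaving out chow mouse 3 also gave 5 of 9 and leaving out HC mouse 1 gave 4, and with HC mouse 2 grouped by its title the count was 1. With fewer mice this order is easier to reach. The share of all genes with it was not computed for these settings, so their counts cannot be read against the shares above.

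The library names of chow mouse 1 and HC mouse 1 start with FUN and the other 3 with SKY, and what the prefix marks is not given in the sources used here. Within FUN the log2 ratio of the HC to the chow level was -1.10 for Cdkn1a and -1.001 for Phlda3, and within SKY -0.96 and -0.88. Aen gave -1.44 and -0.43, Ccng1 -0.51 and -0.09, and Bax -0.32 and -0.18. Zmat3 (-0.54 and 0.17) and Mdm2 (0.09 and -0.06) changed sign. Trp53inp1 gave 0.01 and 0.21, and Eda2r -0.13 and -0.53.

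Alpha cells formed 2 clusters of different size. In the larger one Cdkn1a stood at 102.7, 80.2 and 70.8 UPM in the chow mice, against 42.3 and 38.0 in the HC mice. In the smaller one it stood at 68.3, 42.2 and 49.3 against 36.7 and 40.3, with only 4 and 6 Cdkn1a UMIs in chow mice 3 and 2. Cutting each mouse's alpha cells at their median glucagon share gave 87.2, 79.6 and 64.2 against 39.6 and 36.2 in the lower part, and 90.4, 78.1 and 74.8 against 43.0 and 39.9 in the upper part. In each part both HC mice lay under every chow mouse. These are the same alpha cells whose contrast chose the gene, so the values are a description and no support. The part of the glucagon share in the difference was not tested.

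Other RNA in the alpha cells also differed between mice. Insulin transcripts stood at 22808, 30678 and 19799 UPM in the chow mice, against 21226 and 11073 in the HC mice, and 3 of 11 beta markers were lower in both HC mice. Mitochondrial transcripts stood at 25074, 20991 and 24939 against 36019 and 27400, with 9 of 13 genes higher in both HC mice. A list of 26 genes that respond to tissue dissociation summed to 5956, 5801 and 4519 against 5302 and 5320, with 6 lower in both HC mice and 1 higher. Of all genes fitted in alpha cells, 4.96% were lower in both HC mice than in every chow mouse and 19.6% were higher. Macrophage markers summed to 61.3, 77.1 and 76.2 against 104 and 97.5, and 6 of 8 lymphoid markers were at 0. Their part in the member levels was not tested.

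The share of alpha cells with a Cdkn1a UMI followed the level. For an equal depth, each cell with at least 3000 UMIs was given its chance of holding a Cdkn1a UMI in a draw of 3000. The share was 17.8%, 16.9% and 17.8% in chow mice (of 639, 629 and 533 cells) and 9.65% and 9.06% in HC mice (of 837 and 771). At full depth it was 24.9%, 21.6% and 19.5% against 11.4% and 11.5%, with median UMIs per alpha cell of 4743, 3844 and 3530 against 3553 and 3843. Cells with 3 or more Cdkn1a UMIs in the draw made up 1.69%, 1.52% and 0.774% against 0.593% and 0.535%.

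Phlda3 was in 8.37%, 7.54% and 7.80% of alpha cells of chow mice and 4.30% and 3.997% of those of HC mice at that depth. Aen was in 9.58%, 9.29% and 5.67% against 4.21% and 5.11%, groups that did not overlap at this depth. They did overlap at 1500 UMIs (chow mouse 3 at 2.423%, HC mouse 2 at 2.441%) and at full depth (6.34% and 6.84%). Bax was in 40.7%, 39.1% and 35.2% against 37.3% and 33.2%, which overlapped. They did not at 1500 UMIs (25.3%, 22.2% and 21.3% against 20.7% and 19.2%) or at full depth, where the lowest chow mouse stood at 43.29% and the highest HC mouse at 43.21%, so for both genes the order turned on the depth. No islet type is known to lack Cdkn1a, so no share here serves as a level of free RNA; beta cells had the lowest level.

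**Figure D2:**
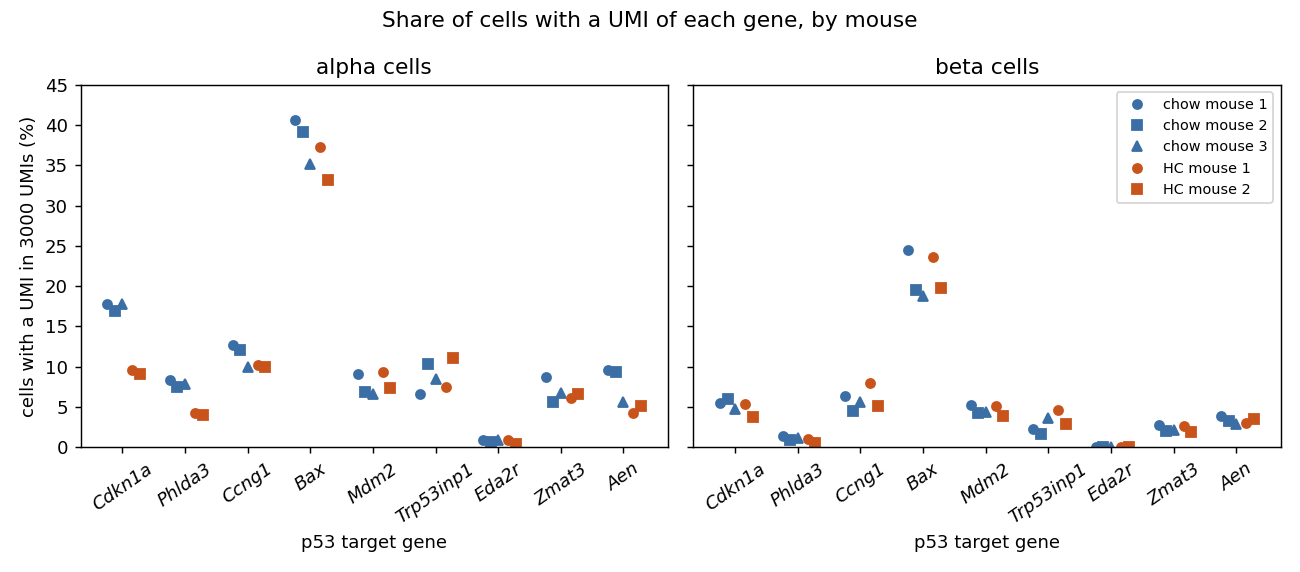
Percent of alpha cells and of beta cells with at least 1 UMI of each gene in a draw of 3000 UMIs per cell, with 1 point per mouse. Alpha cells of HC mice sit at 9.06% and 9.65% for Cdkn1a, under the 16.9% to 17.8% of chow mice, while beta cells of both diets lie between 3.73% and 6.03%.

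In beta cells the diet was tested, and 0 of the 8 members with enough counts passed (edgeR quasi-likelihood test, adjusted p under 0.05 over all genes), where 0.00865% of the 11558 genes did. DESeq2 also passed 0, and 2 members had an unadjusted p under 0.05. Cdkn1a stood at 29.3, 26.5 and 23.3 UPM in the chow mice, against 24.5 and 16.8 in the HC mice. Its log2 difference was -0.44 (standard error 0.121, edgeR adjusted p = 0.552), and HC mouse 1 lay among the chow mice. Without hormone genes both HC mice lay under every chow mouse for Cdkn1a and for Phlda3, an order that 12.7% of all genes then had.

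Phlda3 in beta cells stood at 5.29, 3.10 and 3.73 UPM against 3.83 and 2.10 (log2 difference -0.52, standard error 0.228, edgeR adjusted p = 0.913). The other 6 members had log2 differences from -0.11 (Zmat3) to 0.47 (Trp53inp1, standard error 0.400), with edgeR adjusted p from 0.957 to 0.999. Over the 8, 6 were under 0 and the median was -0.0761, beside 50.8% and -0.0032 over all genes. The share of beta cells with a Cdkn1a UMI was 5.55%, 6.03% and 4.78% in the chow mice, against 5.36% and 3.73% in the HC mice (two-sided exact permutation p = 0.4; the smallest possible with 10 splits is 0.1). Full depth gave 12.95%, 13.9% and 9.17% against 11.1% and 8.82%.

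Delta cells held Cdkn1a at 34.6, 28.2 and 18.7 UPM in the chow mice, against 25.4 and 17.1 in the HC mice (log2 difference -0.42, standard error 0.273, edgeR adjusted p = 0.999). None of the 8 members fitted passed or had an unadjusted p under 0.05, in edgeR, and DESeq2 passed 0. The background was 0 of 9669 genes. Of the 8 members 7 were under 0 and the median was -0.136, beside 49.6% and 0.00246 over all genes. Bax was close in every mouse, at 138, 132 and 122 against 134 and 118.

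In endothelial cells Cdkn1a varied widely between chow mice, at 168, 392 and 462 UPM, and stood at 439 and 386 in HC mice (log2 difference 0.30, standard error 0.459, edgeR adjusted p = 1). In all, 0 of 4 members fitted passed, beside 0.0385% of genes. Macrophages held 43.3, 102 and 183 against 74.0 and 114, with 4 UMIs in chow mouse 1 (log2 difference -0.26, standard error 0.484, edgeR adjusted p = 0.998). Bax was higher in macrophages of both HC mice, at 284 and 270 against 206, 128 and 242, an order of 8.42% of genes, but it did not pass (log2 difference 0.54, edgeR adjusted p = 0.998).

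Stromal cells held Cdkn1a at 66.8, 99.8 and 46.8 UPM in the chow mice, against 88.1 and 23.1 in the HC mice (log2 difference -0.93, standard error 0.570, edgeR adjusted p = 0.998). The 2 HC mice were thus farther apart than the diets. On all UMIs Bax was higher in stromal cells of both HC mice (198 and 126 against 95.4, 125 and 90.4), an order of 9.56% of genes. It did not pass (log2 difference 0.43, edgeR adjusted p = 0.998), and without hormone genes in the total its groups overlapped. Ductal cells held 34.9, 63.1 and 162 against 61.8 and 76.0 (log2 difference -0.09, standard error 0.498, edgeR adjusted p = 0.999).

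Aen and Mdm2 had both HC mice above every chow mouse in ductal cells, 2 of the 6 members fitted beside 4.89% of genes. Aen stood at 17.5, 17.4 and 4.92 against 40.2 and 27.2 (log2 difference 1.198, standard error 0.597, edgeR adjusted p = 0.999). Mdm2 stood at 14.96, 21.8 and 24.6 against 43.3 and 27.2 (log2 difference 0.82). These ductal values rest on few UMIs, for Mdm2 on 5 to 15 per mouse. Members passing numbered 0 of 2 in macrophages, 0 of 3 in stromal cells and 0 of 6 in ductal cells, and no gene at all passed in these types in edgeR. None of these members had an unadjusted p under 0.05, and DESeq2 passed 0 members. On simulated 2-fold changes edgeR recovered 86% in beta and 55% in delta cells, but 36% in endothelial, 19% in ductal, 18% in macrophage and 14% in stromal cells, so a change of that size would often be missed in the smaller types.

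**Figure D3:**
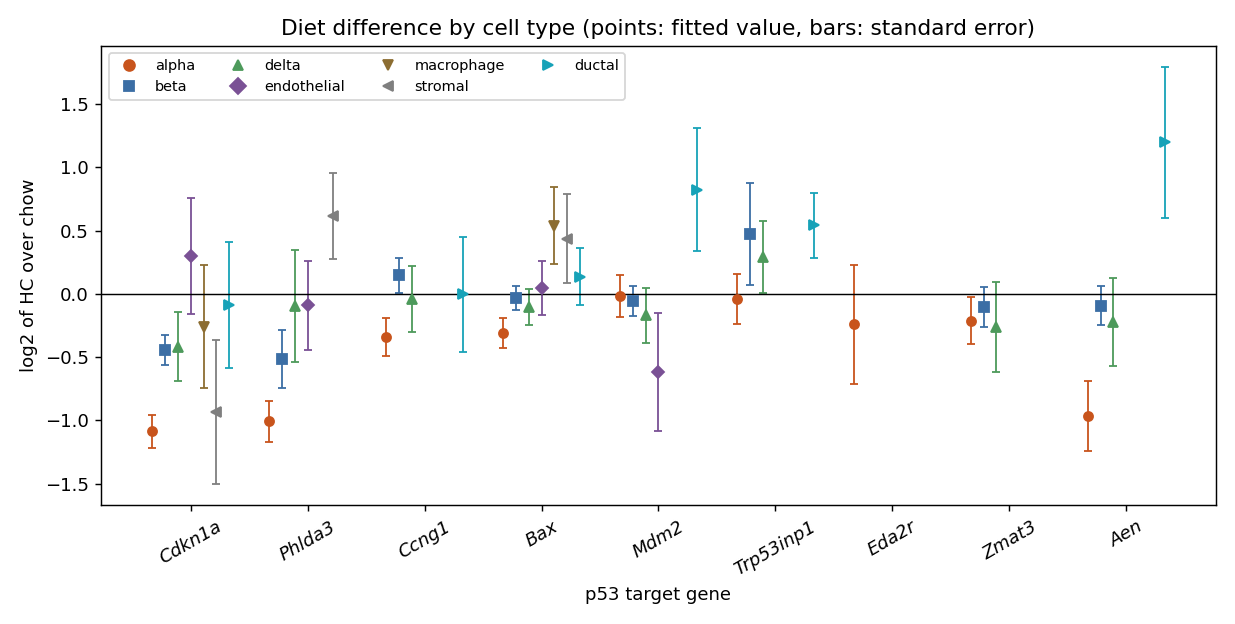
Fitted log2 difference of HC over chow for each gene in each cell type, with bars of 1 standard error. Alpha values, which chose the genes, carry no test; Cdkn1a runs from -1.09 in alpha to 0.30 in endothelial cells, and no member passed in the 6 types tested.

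Across types, Cdkn1a was highest in endothelial cells, at 369 ± 117 UPM (SD, n = 5 mice of both diets). Macrophages followed at 103 ± 52.3, then ductal cells at 79.7 ± 48.6, stromal cells at 64.9 ± 30.97 and alpha cells at 63.6 ± 22.7. Delta cells (24.8 ± 7.15) and beta cells (24.1 ± 4.68) were lowest. Macrophage, ductal, stromal and alpha levels lay within their spread of each other, and so did delta and beta. Alpha was above beta and above delta in 5 of 5 mice and under endothelial in 5 of 5. Without hormone genes in the total, alpha moved from the fifth to the second place.

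Phlda3 had another order, with stromal cells highest at 131 ± 47.4 UPM, then endothelial cells at 54.4 ± 15.98 and alpha cells at 23.9 ± 7.73. Beta cells were lowest at 3.61 ± 1.16. In chow mice alone alpha cells stood above ductal cells in 3 of 3, and in HC mice in 0 of 2. Chow mice 1 and 2 had no Phlda3 UMI in macrophages.

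**Figure D4:**
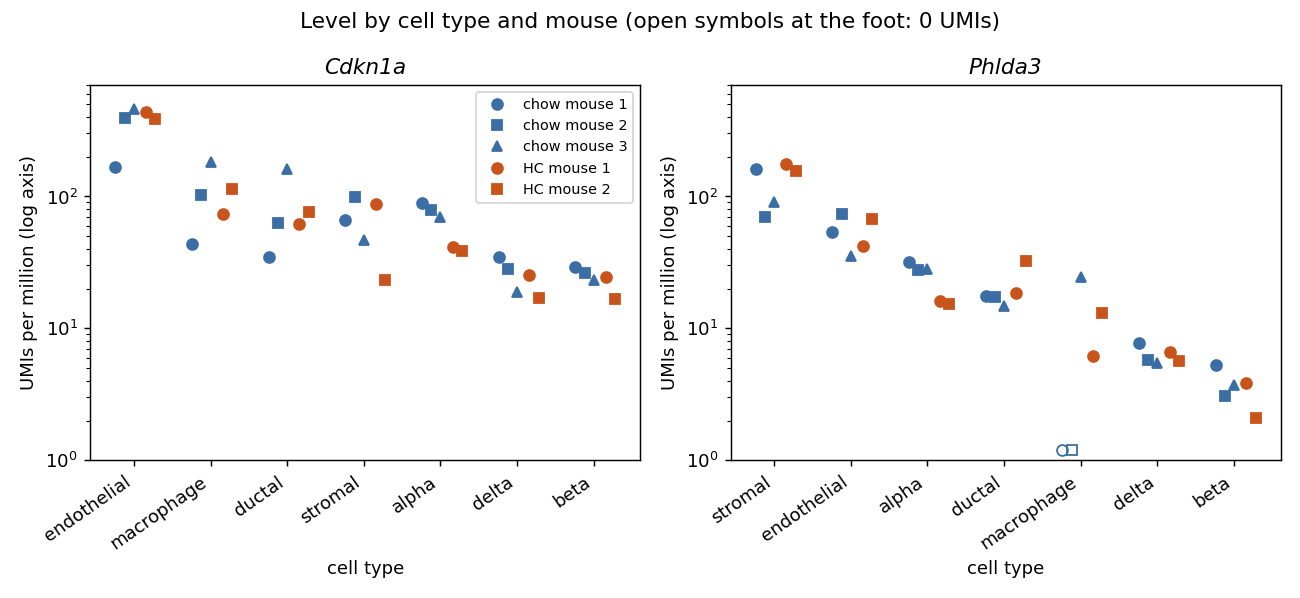
Level of Cdkn1a and of Phlda3 by cell type and mouse, in UPM on a log axis; open symbols at the foot are mice with no UMI. Cdkn1a is highest in endothelial cells (168 to 462) and Phlda3 in stromal cells (69.9 to 176), and alpha cells stand above beta cells in each mouse for both.

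Zmat3 had its highest mean in alpha cells (22.2 UPM), close to stromal cells (20.5 ± 13.5), whose mice ranged from 9.54 to 39.9. Trp53inp1 was highest in ductal cells, at 84.8 to 177 UPM, above alpha cells in every mouse. Bax ranged from 80.0 in beta to 263 in endothelial cells. The mean of Eda2r was at most 4.62 in any type, with single mice up to 9.54, and macrophages had no UMI of it. All 9 members were above beta cells in alpha cells of 5 of 5 mice, but 73% of genes were. Without hormone genes 5 were (Cdkn1a, Phlda3, Bax, Eda2r and Zmat3), beside 22.9% of genes. The ratio of the alpha to the beta mean on all UMIs was 2.64 for Cdkn1a and 6.62 for Phlda3.

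Genes whose level followed that of Cdkn1a most closely over the 35 sums of 7 types and 5 mice were Rasgrp3 (Pearson r = 0.861), Klf4 (0.859), Fas (0.858), Flt1 (0.850) and Cdh5 (0.848), among 8633 genes on the log2 scale. The sums share libraries and differ most by cell type, and all 5 genes were highest in endothelial cells. Bax came closest among the members at 0.767, and Phlda3 stood at 0.468.

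Within a cell type, members were found together. Alpha cells with a Cdkn1a UMI were set against alpha cells of the same mouse without one, at equal depth and without hormone genes in the totals. Phlda3 was 3.04, 3.10 and 3.21 times as high with Cdkn1a in chow mice and 5.48 and 7.33 times in HC mice. Ccng1 gave 2.67, 1.71 and 2.16 against 2.33 and 3.49, and Aen 2.06, 1.71 and 2.12 against 3.34 and 3.30. Zmat3 (median 1.72), Bax (1.64), Trp53inp1 (1.44) and Eda2r (5.23, from 48 UMIs) were also above 1 in every mouse. Mdm2 was not, with a median of 1.21 and 3 of 5 mice above 1.

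Of the 7 other members with at least 100 UMIs, which leaves Eda2r out, 6 were above 1 in 5 of 5 mice, beside 3.42% of the 8456 genes with that many UMIs, whose median ratio was 0.961. By median ratio Phlda3 ranked 4, Ccng1 9 and Aen 17. With a minimum of 50 UMIs these ranks were 7, 22 and 41 of 10153. In 3 random draws of 3000 UMIs per cell, 5 to 6 of these 7 members were above 1 in every mouse, beside 2.61% to 3.01% of genes. Phlda3 ranked 1 in each draw. Cells with Cdkn1a had slightly lower mitochondrial shares in each mouse (1.98% to 3.30%, against 2.05% to 3.53% without) and slightly more UMIs (means 4781 to 6078 against 4775 to 5621). Mitochondrial share and depth were not tested as a source of the ratios.

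Beta cells, in which Cdkn1a did not pass the test of diet, showed the same members together. Phlda3 was 10.0, 9.13 and 11.0 times as high with Cdkn1a in chow mice and 9.34 and 26.8 times in HC mice, ranking 1 of 10414 genes. Ccng1 and Aen each had a median of 2.98 (ranks 9 and 10), Trp53inp1 2.48, Zmat3 2.10 and Bax 1.65. In all, 6 of 7 were above 1 in 5 of 5 mice, beside 2.82% of genes, and Mdm2 again was not (1.11, 4 of 5 mice). With a minimum of 50 UMIs Phlda3, Ccng1 and Aen ranked 1, 13 and 14 of 11410 in beta cells. In the random draws the count was 4 to 5 of 7, beside 2.54% to 2.74% of genes, and Phlda3 had too few UMIs to be ranked. The ratios are given as a description, since cells of 1 mouse are not replicates.

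**Figure D5:**
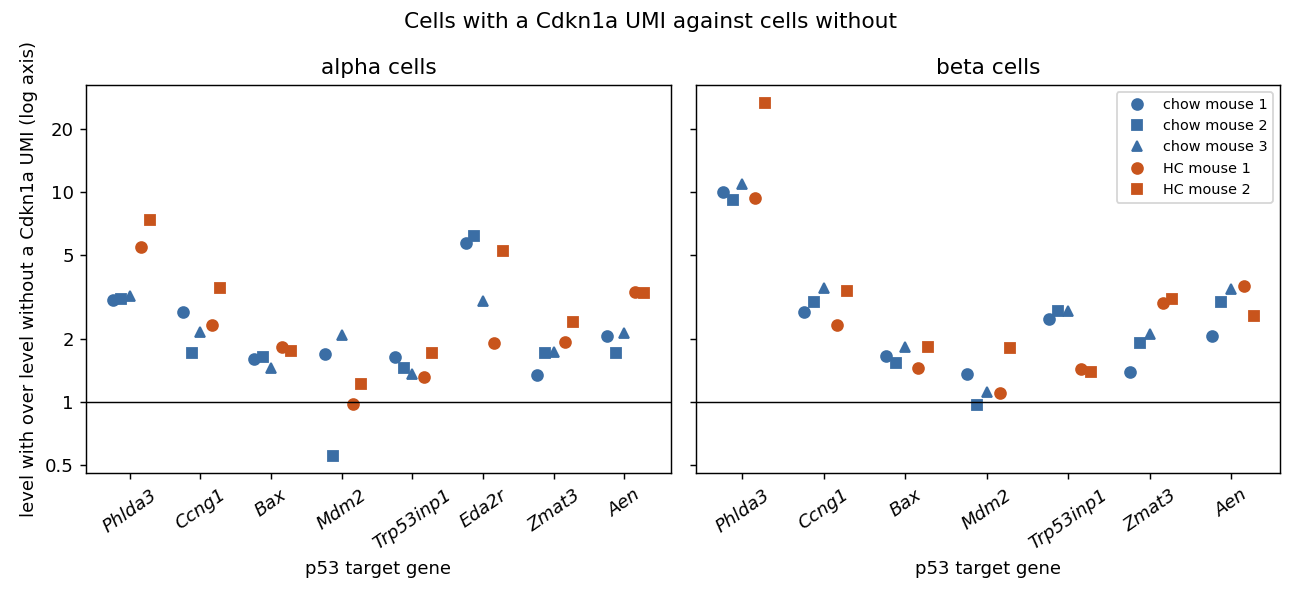
Ratio of each gene's level in cells with a Cdkn1a UMI to its level in cells without one, in alpha and beta cells, on a log axis with 1 point per mouse. Phlda3 lies at 3.04 to 7.33 in alpha cells and 9.13 to 26.8 in beta cells, while Mdm2 lies on both sides of 1.

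Of a list of 43 other p53 targets, 25 had enough UMIs in alpha cells (median over the list 1.14). Beside 3.42% of all genes with enough UMIs, 7 of the 25 were above 1 in every mouse. These were Trp53cor1, a long noncoding RNA next to Cdkn1a (2.48), Bbc3, which encodes the pro-apoptotic protein PUMA (2.11), Rps27l (1.55), Ei24, Ddit4, Ptp4a3 and Trp53i11. The count moved to 9 of 31 with a minimum of 50 UMIs (3.32% of all genes) and to 3 to 4 of 19 in random draws (2.61% to 3.01%). In beta cells, beside 2.82% of genes, 4 of 28 other targets were above 1 in every mouse (median 1.08), among them Trp53cor1 at 2.09. The beta count was 4 of 32 with a minimum of 50 UMIs (2.74% of all genes) and 1 to 4 of 21 in random draws (2.54% to 2.74%). In those draws Trp53cor1 had beta medians of 1.18, 3.10 and 1.04 and was above 1 in only 3, 4 and 3 mice. Trp53 itself had a median of 1.01 in alpha and 0.823 in beta cells. Of 24 dissociation genes in alpha cells 1 was above 1 in every mouse (median 0.903), beside the same 3.42% of genes. In beta cells 2 of 23 were (median 0.966), beside 2.82%.

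By diet, 24 of the 34 other targets fitted in alpha cells were under 0, with a median of -0.165, beside 50.2% and -0.00131 over all genes. The largest differences were those of Trp53cor1 (10.9, 7.61 and 16.2 UPM in chow mice, 9.79 and 5.60 in HC mice, log2 difference -0.64), and of Plk2 and Gadd45a (both -0.38). Only Ppm1d, a phosphatase that dampens p53 signalling, had both HC mice under every chow mouse, as did 4.96% of all genes. Pml and Rrm2b had both above, as did 19.6%. Trp53 stood at 39.4, 33.6 and 26.9 against 40.3 and 31.8 (log2 difference 0.02), and Mdm4, the relative of Mdm2, had a difference of 0.07. Of 15 p53 regulators 6 were under 0 (median 0.0179). Of 13 partners of p21 and related cell cycle genes 6 were (median 0.0111), with Cdkn1b, the gene of p27, at -0.05 and Cdkn1c, the gene of p57, at -0.12.

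In beta cells 22 of 32 other targets were under 0, beside 50.8% of all genes. In edgeR 0 of the 32 passed, and 2 had an unadjusted p under 0.05. They were Ier5 (log2 difference -0.67, edgeR adjusted p = 0.414) and Fdxr (0.41, edgeR adjusted p = 0.913). Ier5 passed when genes of low count were not filtered out (-0.68, edgeR adjusted p = 0.00185). Trp53 (-0.13), Mdm4 (0.00), Cdkn1b (-0.15) and Cdkn1c (0.08) had edgeR adjusted p from 0.949 to 1. Regulators under 0 numbered 10 of 17 and p21 partners 8 of 16.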

How the data were processed

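The values used were raw UMI counts by gene and barcode in 5 deposited matrices, 1 a mouse, made by the authors with Cell Ranger 4.0.0 on mm10, per the submitters' processing notes. The annotation release of the counts is not given in the sources used here. Barcodes with at least 1000 UMIs, 500 genes and at most 15% mitochondrial UMIs were kept. Scrublet called 168 doublets (0.738%), which were kept, with removal of the 6% of highest scores as an alternative. Cells were clustered (scanpy 1.11.5, 2000 variable genes, 30 components, Leiden resolution 1) giving 23 clusters. A type name needed 3 or more of the type's markers within the cluster's 10 leading genes, 2 times as many as for any other type. A cluster in which a different endocrine type's hormone reached 50% of the highest level of that hormone in any cluster got no name. This condition left clusters led by acinar, Ppy and some endothelial genes unnamed. MHC class II genes and Cd74 were left out of this count after a cluster led by them had first been called macrophage. So no cluster was named for PP or acinar cells, nor was one for Schwann cells, and unnamed clusters entered no comparison.

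Counts were summed per mouse and type with at least 20 cells in each mouse and fitted in R 4.3.3 with edgeR 4.0.16 (TMM, filterByExpr, quasi-likelihood test, two-sided, Benjamini-Hochberg adjustment over all genes fitted); DESeq2 1.42.0 was an alternative. The procedure was tested on simulated counts. Sequences came from RefSeq promoter windows of GRCm38.p6; 2 members, Trp53inp1 and Zmat3, matched none.

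The members, lists and tests were chosen with earlier results of these data known. Members were described in every type; other list genes were named by size or p, plus Trp53, Mdm4, Cdkn1b and Cdkn1c, and the genes above 1 in every mouse by that count. The comparison of cells with and without a Cdkn1a UMI, the larger and smaller alpha clusters and the glucagon split were added after the data were seen. A random draw of 3000 UMIs per cell was first used; after repeated draws ranked low genes differently it was replaced by the exact mean over all draws, and the minimum for ranking was raised from 50 to 100 UMIs. Counts and some of the ranks under the earlier choices stand beside the results.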

Additional observations from a re-analysis of the deposited data

Results flagged for a closer look

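Phlda3 in alpha and in ductal cells lay on opposite sides of its chow level. Its HC mean was 53.1% of chow in alpha cells, with both HC mice under all chow mice, and 154.5% in ductal cells, where HC mice stood at 18.5 and 32.6 UPM and chow mice at 17.5, 17.4 and 14.8. The ductal values rest on 3 to 18 UMIs per mouse, and Phlda3 had too few counts there for the fit. The difference between the types was not tested. Groups of 3 and 2 mice are too small for a check of single outlying mice.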

How the results depend on the processing

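With 2 HC mice, 1 library can set a value. No member passed in any tested type under any alternative run. In alpha cells the log2 difference of Cdkn1a ran from -1.20 to -0.74 (-0.83 with HC mouse 2 as chow by its title, -0.74 in the smaller cluster) and that of Phlda3 from -1.08 to -0.78 (by title). Leaving out a mouse gave -1.14 to -1.01 and -1.06 to -0.95. Members with both HC mice under all chow mice numbered 1 by title, 5 without hormone genes and 2 to 5 without a mouse. By title and without a mouse, the share of all genes with that order was not computed. Members higher in alpha than in beta cells numbered 5 without hormone genes. The Cdkn1a share of alpha cells differed by -5.04 percentage points at 1500 UMIs and -10.5 at full depth. No paired analysis was possible because the labels give no replicate numbers that chow and HC mice share; the prefix of the library names, which both diets share, was fitted as a term and gave -1.11 for Cdkn1a and -1.02 for Phlda3 in alpha cells.

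Genes passing changed with the settings; the cause was not tested. In beta cells (1 gene) DESeq2 gave 14, the title 3, age as a term 17, equal cells 0, prefix as a term 22, no filter 51 and removal of high doublet scores 6. Delta cells (0) gave 2 by title, 4 with age, 1 in cells low in insulin, 2 with equal cells, 3 with prefix and 6 with no filter. Ductal cells (0) gave 8 by title, 34 with age, 3 in cells low in insulin, 11 with prefix and 2 with no filter. Endothelial cells (2) gave 0 by DESeq2, with equal cells and at Leiden resolution 0.5, 18 by title, 4 with age, 4 with prefix and 11 with no filter. Macrophages (0) gave 9 with age, 2 with equal cells, 4 with prefix and 9 with no filter. Without a mouse the counts ran from 0 to 9 in beta, 0 to 3 in delta, 0 to 11 in ductal, 0 to 30 in endothelial, 0 to 19 in macrophage and 0 to 3 in stromal cells.

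Signs turned for small differences. Over the alternatives, alpha cells ran from -0.387 to 0.218 for Mdm2, -0.478 to 0.32 for Trp53inp1 and -0.721 to 0.287 for Eda2r. Leaving out a mouse also turned each of these signs. By title, log2 values became -0.0453 for Cdkn1c, 0.0182 for Mdm2, 0.0155 for Trp53 and 0.053 for Zmat3 in beta cells, 0.0611 for Bax and 0.0838 for Phlda3 in delta cells, and for Cdkn1a 0.14 in ductal and 0.56 in stromal cells. Mdm4 in beta cells became -0.0609 with age, -0.0159 with prefix, -0.0055 with no filter and -0.0056 without high doublet scores. Cdkn1a became 0.26 with age and 0.0613 in cells low in insulin in ductal cells, and 0.50 with age and 0.20 with equal cells in macrophages. Without a mouse, beta cells ran from -0.321 to 0.108 for Aen, -0.0653 to 0.00474 for Bax, -0.0748 to 0.339 for Ccng1, -0.087 to 0.256 for Cdkn1c, -0.105 to 0.103 for Mdm4 and -0.229 to 0.007 for Zmat3. Delta cells ran from -0.241 to 0.0091 for Bax and -0.256 to 0.0296 for Phlda3. Cdkn1a ran from -0.442 to 0.49 in ductal, -0.0867 to 0.521 in endothelial, -0.689 to 0.428 in macrophage and -1.60 to 0.157 in stromal cells.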

Other observations

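Clusters without a type name also carried Cdkn1a. In a cluster led by Rbp4 it stood at 94.5, 72.4 and 50 UPM in the chow mice, against 30.1 and 38.2 in the HC mice. In a cluster led by Ppy, the gene of pancreatic polypeptide, it stood at 38.5, 36.0 and 28.1 against 27.2 and 20.5. Cells led by the cell cycle gene Ube2c had 108, 153 and 198 against 126 and 91.9, and a cluster led by Vip had 162, 98.8 and 161 against 129 and 192. A cluster led by the acinar gene Ctrb1 had 36.8, 7.76 and 130.2 against 4.79 and 208.3, with 1 to 67 UMIs per mouse. These clusters entered no test.

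Other genes stood high in alpha cells with a Cdkn1a UMI, chosen here after their values were seen. Hbb-bt, a haemoglobin gene, ranked 1 with a median ratio of 7.53 from 146 UMIs, and its range over the mice could not be given. Inka2 had a median ratio of 4.30 and 1700007K13Rik of 3.74. Dcxr, Map3k20, Serpine2, Polk and Ly6e were among the leading 15, though Polk was above 1 in only 4 mice, with a lowest ratio of 0.193. In beta cells 1700007K13Rik and Map3k20 were again among the leading 15, with Trib3, Lmo1, Mgmt, Cd81 and Nupr1.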
